A study of Mus musculus with 18 samples.

Results

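Transcripts of 9 transcription factors that build and maintain the white fat cell were followed through inguinal fat of tumour-bearing mice. They were Pparg, Cebpa, Klf15, Rxra, Ebf1, Nr1h3, Zfp423, Stat5a and Stat5b, taken by gene symbol from the 21899 gene IDs of the deposited tables. All 9 were present and passed the filter on low counts in every comparison. The tables give a transcription factor family to 1590 gene IDs.

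The fat came from male C57BL/6J mice. They carried cells of the Lewis lung carcinoma (LLC), a transplantable mouse lung tumour, injected under the skin, or had been given phosphate-buffered saline (PBS) in their place. Tissue was taken on day 7, which the labels call pre-cachexia, or on day 21, called cachexia, the wasting that accompanies some tumours. Each day had 5 LLC and 4 PBS libraries, and the labels name no transgene or further agent. Nothing in the labels says whether each library is 1 mouse, so p-values measure the spread between libraries, which may be partly technical. In whole tissue, fewer cells of a type and less RNA per cell cannot be told apart.

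White fat cells are made and kept by a small circuit of DNA-binding proteins. C/EBPα, the product of Cebpa, and the nuclear receptor PPARγ switch on each other's genes and, with RXRα as the obligate partner of PPARγ, turn on the genes of lipid storage and adipokine secretion. EBF1 and ZFP423 act early, in commitment of precursors, while KLF15, LXRα (Nr1h3) and the STAT5 proteins carry hormonal and nutrient signals into the mature cell: glucocorticoid and fasting, oxysterols, and growth hormone or prolactin.

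Total counts per library lay between 14566155 and 18969387. All 8 mature fat cell markers were detected in all groups, with a summed level between 6565 and 10684 TPM, a unit scaled by the authors to transcript length and library total. Several libraries stood apart. Macrophage markers summed to between 155 and 308 TPM in day 21 PBS libraries 1 to 3, against 1937 TPM in PBS library 4 of that day. They were highest in day 21 LLC library 1, at 2991 TPM. Progenitor and fibroblast markers summed to 8607 TPM in that LLC library, against 2158 to 3465 TPM in the other LLC libraries of day 21. In day 21 PBS library 4 they summed to 7007 TPM, against 1380 to 2272 TPM in PBS libraries 1 to 3. B cell markers summed to 1466 TPM in day 21 LLC library 3 and to at most 14.1 TPM in every other library. Skeletal muscle markers were highest in day 7 LLC library 3 (1801 TPM), day 7 PBS library 3 (6345 TPM), day 21 LLC library 2 (1880 TPM) and day 21 PBS library 1 (5328 TPM). They also reached 976 TPM in day 21 PBS library 2 and 580 TPM in day 21 LLC library 5.

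Some stretches of sequence bear on how these genes are read and compared. They are RefSeq sequence on GRCm38.p6 for the 2 promoters, and GENCODE transcript sequence on GRCm38 for the stretch that Stat5a and Stat5b share. The Cebpa promoter is shown because Cebpa was the only factor whose groups did not overlap in level at day 21. That was 1 of the 9, where 9.7% of all genes had such groups. The capitals mark a TATAAA box 30 bases before the start. The Pparg window lies before the most downstream of its 3 start sites in the RefSeq table and is shown because C/EBP proteins regulate Pparg. Its capitals mark 2 matches to the C/EBP pattern TTGCNNAA, read on both strands, whose first bases lie 215 and 16 bases before the start.
Cebpa promoter, chr7:35119043-35119292, plus strand: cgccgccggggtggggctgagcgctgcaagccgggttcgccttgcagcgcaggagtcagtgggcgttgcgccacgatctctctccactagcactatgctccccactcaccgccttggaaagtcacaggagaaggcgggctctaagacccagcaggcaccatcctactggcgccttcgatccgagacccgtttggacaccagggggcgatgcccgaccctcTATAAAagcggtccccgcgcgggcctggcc
Pparg promoter, chr6:115421816-115422065, plus strand: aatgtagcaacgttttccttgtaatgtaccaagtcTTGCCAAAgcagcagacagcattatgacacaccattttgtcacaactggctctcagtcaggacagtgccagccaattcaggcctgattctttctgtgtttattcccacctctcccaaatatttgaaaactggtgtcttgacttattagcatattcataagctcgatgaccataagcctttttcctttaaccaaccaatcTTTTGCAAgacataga
Stat5a and Stat5b shared coding stretch: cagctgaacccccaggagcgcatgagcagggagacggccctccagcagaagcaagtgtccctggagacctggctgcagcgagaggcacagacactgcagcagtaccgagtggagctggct

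Such letters are common. TTGCNNAA occurred in 9.56% and TATAAA in 12.4% of the 32851 mouse promoter windows of 250 bases, so each match is a description of the sequence and not a bound site. No match to TTGCNNAA lay in the Cebpa window, nor in those of the other 2 Pparg starts. The deposited values are per gene, so transcripts from different Pparg starts were not separated. The shared Stat5 stretch has no capitals because both genes carry every base of it. The 120 bases printed are the beginning of a 324-base run, starting at base 571 of both coding sequences, in which Stat5a and Stat5b are identical.

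The 9 factors covered a wide range of levels. Over all 18 libraries Cebpa averaged 388 ± 70.0 TPM (SD) and ranked 2nd among the transcription factors of the tables. Pparg averaged 248 ± 59.9 TPM and ranked 7th. Nr1h3 followed at 85.6 ± 12.3 TPM, Rxra at 71.5 ± 11.1 TPM, Klf15 at 52.4 ± 8.67 TPM and Ebf1 at 43.4 ± 9.75 TPM. Stat5a averaged 28.8 ± 6.09 TPM, Stat5b 26.4 ± 4.97 TPM and Zfp423, the least abundant, 16.4 ± 3.91 TPM, which was rank 321 of the 1035 factors with a mean of at least 1 TPM.

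Cebpa exceeded Pparg, and Pparg exceeded Nr1h3, in 18 of 18 libraries, so the top of the order did not depend on the library. Nr1h3 exceeded Rxra in 15 libraries, Rxra exceeded Klf15 in 17, Klf15 exceeded Ebf1 in 15 and Ebf1 exceeded Stat5a in 17. Stat5a exceeded Stat5b in only 13 of 18, and these neighbours did not differ beyond their spread over libraries. Day 21 LLC library 4 had the lowest TPM of all 18 for every factor except Pparg and Klf15. In that library mitochondrially encoded genes took 20.8% of the counts, the highest share of any library, and the part of that share in its TPM was not tested.

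**Figure D1:**
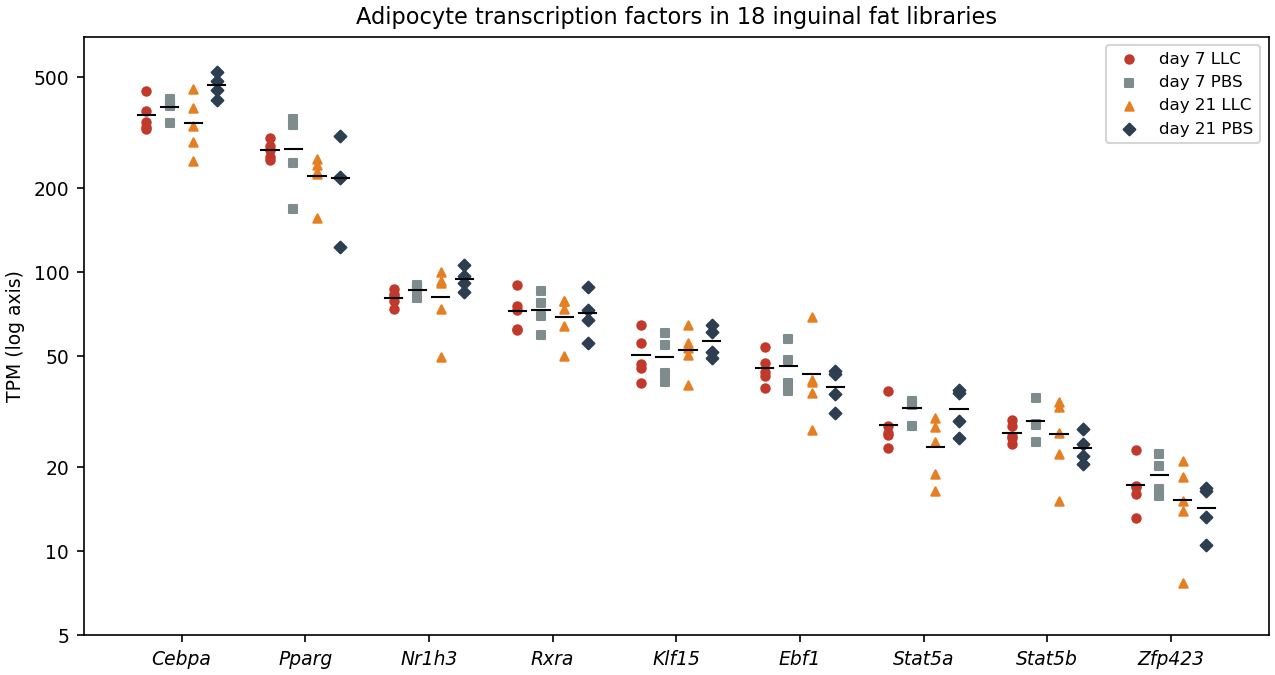
TPM (log axis) of the 9 factors in each of the 18 libraries, coloured by group with bars at the group means, and the genes in order of their mean. Cebpa and Pparg sit above the others in every library, and the points of Stat5a and Stat5b lie over the same range.

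At day 7 the question was whether the circuit differs before wasting. None of the 9 factors passed the adjusted threshold of 0.05 in edgeR's quasi-likelihood test, where 0.00744% of the 13445 genes tested did, and none had an unadjusted p under 0.05, against 8.51% of genes. The LLC-minus-PBS differences lay between -0.15 (Stat5a) and 0.06 (Klf15) on the log2 scale, with 4 above 0, as 51.1% of genes had, and 5 below. No factor had groups that did not overlap in CPM, the read count relative to the library total with TMM scaling between libraries, as 2.52% of genes had. DESeq2 also called none of the 9 at day 7. With the replicate number as a block, fitted without LLC library 5, none passed either. The labels do not say that libraries are paired by number. The blocked fit gave Stat5a -0.30 ± 0.09 (unadjusted p = 0.00821, adjusted p = 0.330) and Cebpa -0.18 ± 0.08 (unadjusted p = 0.0416, adjusted p = 0.481). The library it left out had the highest Stat5a and Cebpa levels of that day.

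Pparg, the receptor that fat cell formation requires, averaged 256 ± 32.5 CPM in LLC fat and 253 ± 78.7 CPM in PBS fat at day 7 (SD, n = 5 and 4). Cebpa averaged 500 ± 95.9 CPM in LLC fat and 524 ± 47.9 CPM in PBS fat. Stat5a averaged 50.6 ± 11.4 CPM in LLC fat and 56.4 ± 1.38 CPM in PBS fat. The 4 PBS libraries of day 7 were close together in Stat5a, and LLC library 5, at 69.3 CPM, lay above all of them while the other 4 LLC libraries, at 39.3 to 51.1 CPM, lay below. In that same LLC library 5, Cebpa was also the highest of the day, at 658 CPM, and markers of adipose progenitors and fibroblasts summed to 3244 TPM, against 7063 TPM or more in the other LLC libraries of day 7. Without LLC library 5 the log2 difference at day 7 was -0.29 ± 0.08 for Stat5a (edgeR adjusted p = 0.356) and -0.18 ± 0.09 for Cebpa (adjusted p = 0.605). That library held the highest value of both genes, so lower estimates without it were fixed in advance. Leaving out 1 library at a time moved Stat5a between -0.29 and -0.08 and Cebpa between -0.18 and -0.01. The part of cell makeup in the Cebpa and Stat5a levels of LLC library 5 was not tested.

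At day 21 none of the 9 factors passed the adjusted threshold, as 0.0885% of genes did (12 of 13564). With TMM scaling all 9 estimates were below 0, as were 48.1% over all genes, but on the TPM scale those of Pparg, Ebf1, Zfp423 and Stat5b were above 0. The median of the 9 log2 differences was -0.19, against 0.02 over all genes tested. Stat5a, Cebpa and Nr1h3 had the largest differences and an unadjusted p under 0.05, as 11.5% of genes had in that direction. The other 6 lay between -0.22 and -0.02. Cebpa was the only factor whose groups did not overlap, where 9.7% of genes had such groups in either direction.

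Cebpa (ENSMUSG00000034957, GRCm38 chromosome 7, 35119293 to 35121928, plus strand) encodes C/EBPα. It measured 331, 671, 458, 490 and 493 CPM in LLC libraries 1 to 5 of day 21, against 745, 678, 752 and 712 CPM in PBS libraries 1 to 4. The highest LLC value lay under the lowest PBS value, with LLC library 2 close to PBS library 2, and the LLC libraries were the more scattered. Group means were 489 ± 122 CPM in LLC fat and 722 ± 34.1 CPM in PBS fat, a log2 difference of -0.58 ± 0.19 (SE; unadjusted p = 0.0125, adjusted p = 0.124). DESeq2 gave an adjusted p = 0.0322 and the joint fit of the 18 libraries of both days an adjusted p = 0.0273, so the call depended on the fit. Over the whole table DESeq2 called 1555 genes, against 12 in the main fit, and the joint fit called more still. Without PBS library 4 the log2 difference was -0.59 ± 0.22 (edgeR adjusted p = 0.115). Over all alternatives the adjusted p ran from 0.0273 to 0.630 and the log2 difference from -0.77 to -0.43. The value of -0.43 was without LLC library 1, which had the lowest Cebpa level and stood apart in macrophage and progenitor markers.

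Stat5a (ENSMUSG00000004043, GRCm38 chromosome 11, 100859351 to 100885169, plus strand) encodes a factor activated by growth hormone and prolactin receptors. In LLC libraries 1 to 5 of day 21 it measured 37.3, 61.9, 40.3, 41.9 and 36.1 CPM, against 69.2, 65.0, 77.4 and 49.5 CPM in PBS libraries 1 to 4. Of the LLC libraries, 4 lay under all PBS libraries, while LLC library 2 exceeded PBS library 4. The means were 43.5 ± 10.5 CPM in LLC fat and 65.3 ± 11.7 CPM in PBS fat, a log2 difference of -0.61 ± 0.19 (unadjusted p = 0.00894, adjusted p = 0.112). Without PBS library 4, whose macrophage markers stood apart, the difference was -0.72 ± 0.18 and passed (adjusted p = 0.0434), and the count of genes called over the whole table went up to 1277. PBS library 4 also had the lowest Stat5a value of the PBS libraries, so a larger difference without it was fixed in advance. Without LLC library 1 the difference was -0.51. DESeq2 on all 9 libraries also called Stat5a (adjusted p = 0.0428), as did the joint fit of both days (adjusted p = 0.0270). Both fits called far more genes over the whole table than the main fit. The adjusted p of Stat5a ran from 0.0270 to 0.630 over all alternatives.

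Nr1h3 (ENSMUSG00000002108, GRCm38 chromosome 2, 91184061 to 91202834, minus strand) encodes LXRα, the oxysterol receptor. It measured 70.3, 74.3, 75.2, 65.7 and 100.4 CPM in LLC libraries 1 to 5 of day 21, against 102, 108, 96.2 and 91.2 CPM in PBS libraries 1 to 4. Only LLC library 5 reached the PBS range. With all libraries the log2 difference was -0.38 ± 0.13 (unadjusted p = 0.0171, adjusted p = 0.138), with means of 77.2 ± 13.5 CPM in LLC fat and 99.3 ± 7.19 CPM in PBS fat. Without PBS library 4, which held the lowest PBS value, it was -0.42 ± 0.15 (edgeR adjusted p = 0.103), and without LLC library 1 it was -0.31. In limma on log2(TPM + 0.1) the difference was -0.25 (adjusted p = 0.545). Nr1h3 passed in the joint fit of both days (adjusted p = 0.0258), which called far more genes over the whole table than the main fit.

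The authors' deposited TPM shift the median of all genes at day 21 by 0.15 on the log2 scale, against 0.02 with TMM. Set against that shift, the TPM differences of Cebpa (-0.47), Stat5a (-0.47) and Nr1h3 (-0.25) still lay below the median gene. Those of Pparg, Ebf1, Zfp423 and Stat5b changed sign to values between 0.05 and 0.11, under the shift of the median gene, so no direction is given for these 4.

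**Figure D2:**
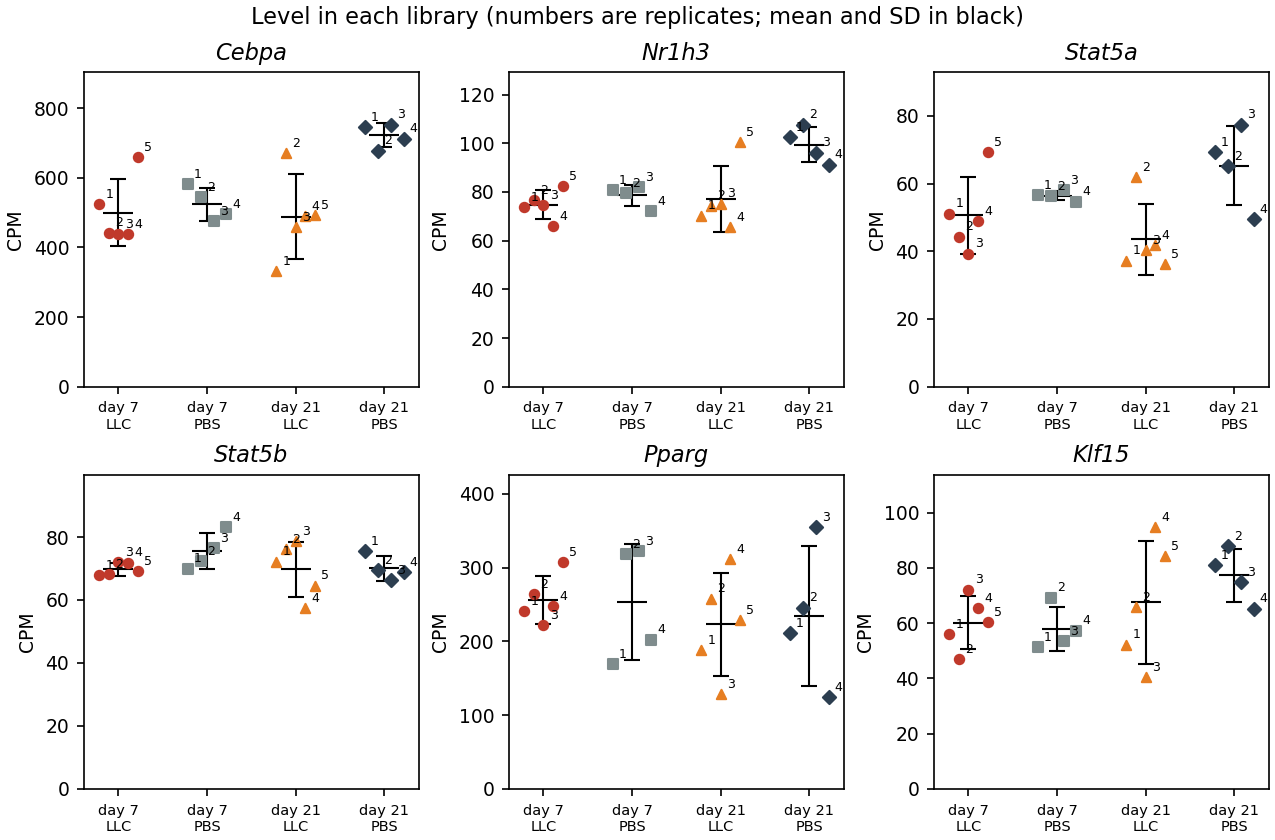
CPM of Cebpa, Nr1h3, Stat5a, Stat5b, Pparg and Klf15 in every library, with the replicate number at each point and the mean and SD in black. At day 21 the LLC libraries of Cebpa lie below all PBS libraries, those of Stat5b and Pparg lie over the PBS range, and LLC library 5 of Nr1h3 and LLC library 2 of Stat5a sit apart from their group.

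Pparg itself (ENSMUSG00000000440, GRCm38 chromosome 6, 115360951 to 115490399, plus strand) was among the most variable factors. It measured 188, 258, 128, 312 and 229 CPM in LLC libraries 1 to 5 of day 21, against 211, 246, 355 and 125 CPM in PBS libraries 1 to 4. The lowest and the highest value of all 18 libraries were both day 21 PBS libraries, so the groups overlapped over nearly their whole range. The log2 difference was -0.09 ± 0.32 (adjusted p = 0.873), and leaving out 1 library at a time moved it between -0.30 and 0.18. With that error, a difference of the size seen in Cebpa was not detectable in Pparg.

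Rxra (ENSMUSG00000015846, GRCm38 chromosome 2, 27676440 to 27762957, plus strand), whose product pairs with PPARγ and LXRα, averaged 183 ± 35.1 CPM in LLC fat and 205 ± 29.4 CPM in PBS fat at day 21. Its log2 difference was -0.19 ± 0.17 (adjusted p = 0.512), and -0.066 ± 0.16 without LLC library 3, which held the B cell markers. Klf15 (ENSMUSG00000030087, GRCm38 chromosome 6, 90462576 to 90475238, plus strand) encodes a zinc finger factor induced by glucocorticoids. It measured 52.2, 65.7, 40.5, 94.8 and 84.3 CPM in LLC libraries 1 to 5, against 81.0, 87.8, 74.9 and 65.2 CPM in PBS libraries 1 to 4. The LLC libraries held both the lowest and the highest Klf15 value of the day, and the log2 difference was -0.22 ± 0.23 (adjusted p = 0.583). It was -0.043 ± 0.19 without LLC library 3 and -0.37 ± 0.22 without LLC library 4.

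The early factors did not separate the groups. Ebf1 (ENSMUSG00000057098, GRCm38 chromosome 11, 44617317 to 45008091, plus strand) encodes a factor of fat cell precursors that also specifies B cells. It averaged 127 ± 29.1 CPM in LLC fat and 128 ± 9.68 CPM in PBS fat at day 21 (log2 difference -0.03 ± 0.16). Its highest value of all libraries, 175 CPM, was in LLC library 3, the library with 1466 TPM of B cell markers, and without that library the log2 difference was -0.14 ± 0.12 (adjusted p = 0.554). Zfp423 (ENSMUSG00000045333, GRCm38 chromosome 8, 87661810 to 87959595, minus strand), which commits precursors and holds down thermogenic genes in white fat cells, averaged 36.5 ± 9.28 CPM in LLC fat and 36.6 ± 5.43 CPM in PBS fat. Its log2 difference was -0.02 ± 0.20.

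Stat5b (ENSMUSG00000020919, GRCm38 chromosome 11, 100780731 to 100850724, minus strand) encodes the close relative of STAT5A and lies 8626 bases from Stat5a on the opposite strand. It measured 72.2, 76.1, 78.6, 57.4 and 64.6 CPM in LLC libraries 1 to 5 of day 21, against 75.5, 69.5, 66.3 and 68.9 CPM in PBS libraries 1 to 4. LLC libraries lay on both sides of the PBS range, and the log2 difference was -0.03 ± 0.11 (adjusted p = 0.903). Of the 9 factors Stat5b varied least across the 18 libraries, with a highest CPM 1.45 times the lowest, against 2.84 times for Pparg and 2.27 times for Cebpa.

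The pair was then described as a ratio, which was chosen after the values had been seen and carries no test. The Stat5a to Stat5b ratio of TPM was 0.847, 1.12, 0.718, 1.09 and 0.844 in LLC libraries 1 to 5 of day 21, against 1.38, 1.33, 1.80 and 1.05 in PBS libraries 1 to 4. PBS library 4 was the only PBS library inside the LLC range. The mean ratio was 0.924 ± 0.175 in LLC fat and 1.39 ± 0.310 in PBS fat at day 21, and 1.08 ± 0.281 in LLC fat and 1.12 ± 0.110 in PBS fat at day 7. Read assignment between the genes limits this ratio, since 14.65% of all 50-base windows of Stat5a transcripts also occur in Stat5b and their aligned coding bases are 90.6% identical. With the counts of both genes summed before the fit, the day 21 difference was -0.28 ± 0.13 (unadjusted p = 0.0527, adjusted p = 0.219). Stat5a also overlaps Stat3 on the other strand by 72 bases, where reads cannot be assigned without strand information.

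**Figure D3:**
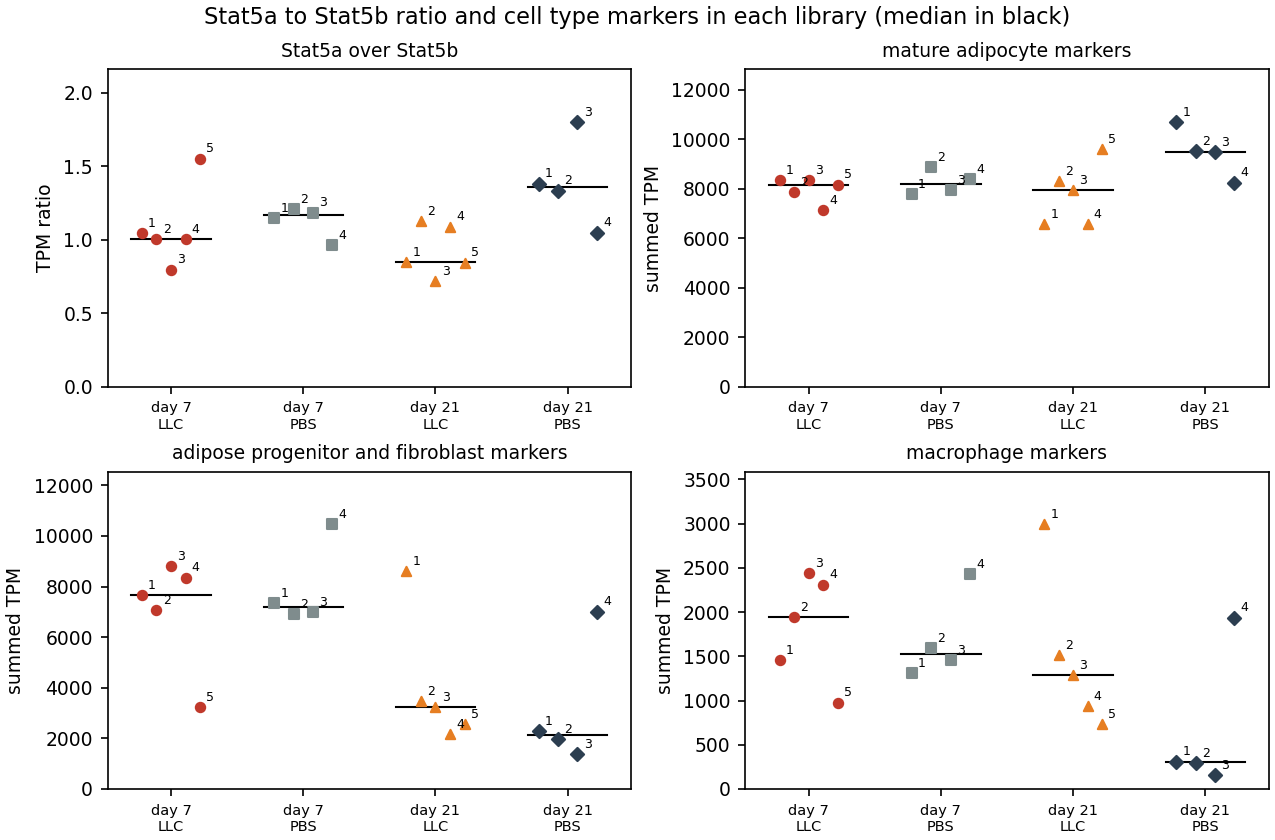
Ratio of Stat5a to Stat5b TPM, and summed TPM of mature fat cell, progenitor and fibroblast, and macrophage markers, in each library with the group median in black. At day 21, PBS libraries 1 to 3 have the highest Stat5 ratios of their day and the lowest macrophage sums, and PBS library 4 lies with the LLC libraries in both.

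Markers of the cell types in the tissue were set beside these values. At day 21 all 8 mature fat cell markers had a lower estimate in LLC fat (median log2 difference -0.50), and none passed. Their summed level was 6565 to 9593 TPM in LLC fat and 8243 to 10684 TPM in PBS fat. All 10 macrophage markers had a higher estimate in LLC fat (median 0.98, none past the threshold), with sums of 733 to 2991 TPM in LLC fat and 155 to 1937 TPM in PBS fat. Progenitor and fibroblast markers had a median of 0.45, with 7 of 12 higher and none past the threshold. Their sums were 2158 to 8607 TPM in LLC fat and 1380 to 7007 TPM in PBS fat. Endothelial markers summed to 629 to 1130 TPM in LLC fat and 390 to 584 TPM in PBS fat, ranges that did not overlap. The part of this difference in cell makeup in the Cebpa, Stat5a and Nr1h3 values was not tested.

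The test of whether the tumour effect differed between days gave no call among the 9, where 0.415% of 13975 genes passed. None had an unadjusted p under 0.05 either, as 18.2% of genes did. Cebpa came nearest, with a day 21 minus day 7 difference in the LLC effect of -0.50 ± 0.24 on the log2 scale (unadjusted p = 0.0503, adjusted p = 0.276). Nr1h3 had -0.29 ± 0.15 (unadjusted p = 0.0704) and Stat5a -0.43 ± 0.24 (unadjusted p = 0.0973). The LLC effect at day 21 was thus not shown to differ from that at day 7 for any of the 9.

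Each treatment was also compared across days, in a fit that shares the same libraries with the comparisons above. Within LLC fat, day 21 against day 7 called none of the 9, against 1.77% of genes. Cebpa differed by -0.03 ± 0.16 and Nr1h3 by 0.05 ± 0.10 on the log2 scale, and Stat5a by -0.22 ± 0.16. Within PBS fat none was called either, where 3.21% of genes passed. Yet 2 of the 9, Cebpa and Nr1h3, had day 21 PBS values above all day 7 PBS values, as 7.92% of genes had in that direction.

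Cebpa measured 745, 678, 752 and 712 CPM in PBS libraries 1 to 4 of day 21, against 581, 544, 475 and 495 CPM in those of day 7. The groups were separated by a gap wider than the range of the day 21 libraries, and the log2 difference was 0.46 ± 0.18 (unadjusted p = 0.0176, adjusted p = 0.148). Nr1h3 measured 102, 108, 96.2 and 91.2 CPM in the day 21 PBS libraries, against 80.8, 79.5, 82.1 and 72.2 CPM in those of day 7. All day 21 values were the higher, with a log2 difference of 0.34 ± 0.11 (unadjusted p = 0.00788, adjusted p = 0.104). DESeq2 called Nr1h3 (adjusted p = 0.0476), in a fit that called 1109 genes over the whole table, against 449 in the main fit. Limma on log2(TPM + 0.1) gave 0.13 (adjusted p = 0.695) for Nr1h3 and 0.26 (adjusted p = 0.386) for Cebpa. On that scale the median gene shifted by -0.20, against 0.006 with TMM. Klf15 had 0.42 ± 0.21 (adjusted p = 0.273).

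Cell type markers also differed between the PBS groups. Over all genes the median log2 difference was 0.006, and 3.21% passed the threshold. All 12 progenitor and fibroblast markers had a lower estimate at day 21 (median log2 difference -1.32) and 4 of them fell past the threshold. Their sums were 1380 to 7007 TPM at day 21 and 6917 to 10456 TPM at day 7. All 10 macrophage markers had a lower estimate (median -1.05) and 1 fell past the threshold, with sums of 155 to 1937 TPM at day 21 and 1306 to 2431 TPM at day 7. Of the 8 endothelial markers 5 had a lower estimate, 2 of them past the threshold. Of the 8 mature fat cell markers 7 had a higher estimate (median 0.40), none past it. The part of this difference in cell makeup in the Cebpa and Nr1h3 values was not tested.

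Cebpa averaged 489 CPM in LLC fat at day 21, against 500 CPM in LLC fat and 524 CPM in PBS fat at day 7 and 722 CPM in PBS fat at day 21. Single day 21 LLC libraries lay both below and above all day 7 values, with library 1 at 331 CPM and library 2 at 671 CPM. Nr1h3 averaged 77.2 CPM in LLC fat at day 21, against 74.7 CPM in LLC fat and 78.6 CPM in PBS fat at day 7 and 99.3 CPM in PBS fat at day 21, and LLC library 5 of day 21, at 100.4 CPM, exceeded every day 7 library.

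**Figure D4:**
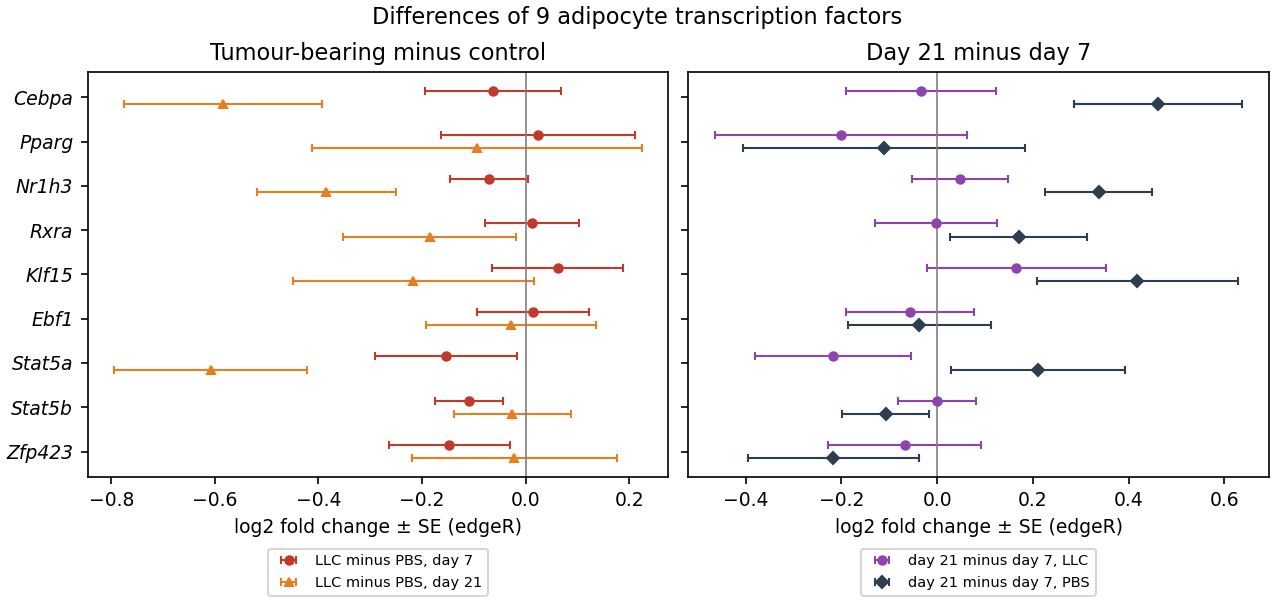
Log2 fold change with its SE for the 9 factors, LLC against PBS at each day and day 21 against day 7 within each treatment. At day 7 all estimates lie within 0.16 of 0, while at day 21 Stat5a, Cebpa and Nr1h3 lie farthest below it.

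Genes that these factors are known to regulate were counted from lists, which were chosen with earlier results of these data known. The counts beside the shares of all genes are therefore a description and not a test. Of 22 genes turned on by PPARγ and C/EBPα in fat cells, 20 had a lower estimate in LLC fat at day 21, where 48.1% of all genes did. The list shares Adipoq, Plin1, Lep, Cidec and Plin4 with the mature fat cell markers, so the counts for these lists are not separate observations. An unadjusted p under 0.05 with a lower estimate was found for 10 of the 22, against 11.5% of all genes, and none passed the adjusted threshold. Their median log2 difference was -0.66, against 0.02 over all genes. Plin1, the coat protein of the lipid droplet, averaged 1088 ± 223 CPM in LLC fat and 2078 ± 370 CPM in PBS fat, with groups that did not overlap (log2 difference -0.96 ± 0.21, adjusted p = 0.0729). Of the 22, 2 had such groups, where 9.7% of all genes did in either direction. Agpat2, an acyltransferase of triglyceride synthesis, had -1.40 ± 0.41. Dgat2, which adds the last fatty acid, had -1.54 ± 0.50, and Slc2a4, the insulin-responsive glucose transporter, -0.91 ± 0.30. At day 7 the same list had a median of -0.08, with 15 of 22 lower and none past the threshold. Day 21 against day 7, 21 of 22 had a higher estimate within PBS fat (median 0.53) and 9 of 22 within LLC fat (median -0.11), in fits that share these libraries. The medians over all genes were 0.006 within PBS fat and 0.05 within LLC fat. The summed level of the list was 52467 to 85014 TPM in LLC fat and 70030 to 84646 TPM in PBS fat at day 21, ranges that overlapped, with the highest sum in LLC library 4.

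Of 6 genes attributed to KLF15, 5 had a lower estimate at day 21, where 48.1% of all genes did. Their median was -0.48, against 0.02 over all genes. Acss2, which makes acetyl-CoA from acetate, averaged 121 ± 92.1 CPM in LLC fat and 498 ± 133 CPM in PBS fat, with groups that did not overlap (log2 difference -2.06 ± 0.50, adjusted p = 0.0774). Such groups were found for 1 of the 6, against 9.7% of all genes. Prodh, the proline dehydrogenase, had -0.18 ± 0.30 and Pck1, of glyceroneogenesis, -0.79 ± 0.45. The list shares Slc2a4 and Pck1 with that of PPARγ and C/EBPα.

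Of 10 LXR targets, 5 were lower and 5 higher at day 21, with a median of -0.23. Srebf1, the lipogenic factor, had a log2 difference of -0.86 ± 0.34 and Scd1, the desaturase of fatty acid synthesis, -1.76 ± 0.80. Lpcat3, which remodels phospholipids, had -0.48 ± 0.15, and Mlxipl, the carbohydrate-responsive factor, -0.73 ± 0.35. None passed the adjusted threshold.

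The 7 measured STAT5 targets had a median of -0.34 at day 21, with 3 higher and 4 lower. Socs3, a feedback inhibitor of cytokine receptors that STAT3 also induces, averaged 23.5 ± 12.4 CPM in LLC fat and 7.25 ± 1.54 CPM in PBS fat, with groups that did not overlap (log2 difference 1.68 ± 0.34, adjusted p = 0.0638). Such groups were found for 1 of the 7, against 9.7% of all genes. Socs2, the inhibitor of growth hormone signalling, had 0.69 ± 0.38. Igf1, the growth factor that growth hormone induces, had -0.34 ± 0.18, and Bcl6, a repressor that STAT5 holds down, -1.01 ± 0.56. The members of this list went in both directions and none passed. At day 7, 6 of the 7 had a higher estimate in LLC fat (median 0.44), 3 of them with an unadjusted p under 0.05, against 8.51% of all genes in either direction, and none passed.

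Among 36 other transcription factors of the fat cell, 17 were higher and 19 lower at day 21 with a median of -0.07, and none passed. The list shares Srebf1 and Mlxipl with the LXR targets and Bcl6 with the STAT5 targets. Klf4, a zinc finger factor of early fat cell differentiation, averaged 123 ± 27.0 CPM in LLC fat and 46.4 ± 31.2 CPM in PBS fat (log2 difference 1.38 ± 0.40, adjusted p = 0.104). Klf7, which restrains fat cell differentiation, had 0.56 ± 0.15 with groups that did not overlap. Nfib, a nuclear factor I protein that binds beside PPARγ, had -0.44 ± 0.13, also without overlap, and Zfp467, which favours fat over bone formation, -0.95 ± 0.27. Groups that did not overlap were found for 5 of the 36, against 9.7% of all genes. Over the 1108 transcription factors tested at day 21, the median was 0.10.

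The genes most like each factor across the 18 libraries were found by Pearson correlation of log2 CPM over 13046 genes, as a description of libraries that share groups, cell makeup and depth. Cebpa was most like Mtus1 (r = 0.91), Napepld and Srr. Stat5a was most like Rnf24 (0.92), Tubg1 and Abca2, and Nr1h3 like Slc46a3 (0.92), Coro6 and Elmod3. Pparg was most like Tmem38b (0.85), Klf15 like Ngly1 (0.89), Rxra like Lrig1 (0.87), Stat5b like Tnik (0.89), Zfp423 like Syp (0.82) and Ebf1 like L3mbtl3 (0.80).

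Among the 9 themselves, the closest pairs were Cebpa with Stat5a (r = 0.80 over 18 libraries), Klf15 with Rxra (0.75) and Cebpa with Nr1h3 (0.66). Cebpa and Pparg, which regulate each other, had r = 0.11, and Pparg and Nr1h3 had r = -0.0098. Stat5a and Stat5b had r = 0.19. The pairs thus ranged from closely alike to unrelated or opposite, the lowest being Klf15 with Stat5b (r = -0.51).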

How the data were processed

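Poly(A)-enriched RNA libraries were made with the NEBNext Ultra kit, per the labels' protocols. Reads were trimmed with fastp 0.23.0 and quantified with RSEM on mm10 or GRCm38, per the submitters' processing notes; no aligner is named there. The deposited expected counts from RSEM, which the authors gave as whole numbers, were tested as they stand. The TPM that the authors deposited served for levels, marker sums and 2 alternatives. The deposited log2 ratio and p-value columns were made by the authors and are quoted only where named. Counts were tested with edgeR 4.0.16 in R 4.3.3 (TMM, filterByExpr, quasi-likelihood, two-sided, Benjamini-Hochberg over all genes at 0.05), within each day, and in 1 fit of all 18 libraries for contrasts between days. DESeq2 1.42.0 and limma 3.58.1 gave alternatives, and the edgeR test was checked on simulated counts. CPM use TMM factors of all 18 libraries. The SE of a log2 fold change is approximate, derived from the estimate and the F statistic of its test. Libraries of 1 group differed by more than sampling noise (lowest chi-square per gene 15.8). In their deviations from group means, same-numbered LLC and PBS libraries of day 7 had correlations of 0.12 to 0.53. Differently numbered libraries were not compared, and the PBS libraries numbered 4 of days 7 and 21 had 0.50. Pairing by number was thus not shown, and the block served only as an alternative. Members and lists were chosen with earlier results of these data known. The named genes were the 9 factors, at most 4 genes per list by smallest day 21 p, and the 3 most correlated genes per factor.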

Additional observations from a re-analysis of the deposited data

Results flagged for a closer look

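Of the 36 combinations of a factor and a group, 2 held a library far from the rest of its group, and chance alone flags about 5% of such groups. Nr1h3 measured 100.4 CPM in day 21 LLC library 5, where the nearest of the other LLC libraries had 75.2 CPM, a gap of 0.724 of the group's range. Without that library its log2 difference was -0.47 ± 0.10 (edgeR adjusted p = 0.0855). Stat5a measured 61.9 CPM in day 21 LLC library 2, where the nearest had 41.9 CPM, a gap of 0.778 of the range. Without that library its log2 difference was -0.77 ± 0.14 (edgeR adjusted p = 0.0503). Each of these libraries held the highest value of the lower group, so a larger difference without it was fixed in advance. Without LLC library 1 the day 21 differences were -0.31 for Nr1h3 and -0.51 for Stat5a.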

How the results depend on the processing

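Of 872 values of single factors under alternatives, 770 kept their direction and side of the threshold, 7 passed it newly and 95 changed sign, none of them past it (largest size 0.18, smallest adjusted p 0.698). Factors called at day 21 numbered 2 in DESeq2, 3 in 1 fit of all 18 libraries and 0 to 1 with 1 library left out. Within PBS between days, DESeq2 called 1. Genes called over the whole table varied widely. The setting without the libraries high in muscle genes left out LLC library 3 and PBS library 3 at day 7. At day 21 it left out LLC libraries 2 and 5 and PBS libraries 1 and 2, so that fit had fewer libraries than the others. At day 7 they were 80 in DESeq2, 0 in 1 fit of all 18 libraries and without the libraries high in muscle genes, and 0 to 3 with 1 library left out. At day 21 they were 1555 in DESeq2, 2660 in 1 fit of all 18 libraries, 61 and 78 in limma on log2(TPM + 1) and log2(TPM + 0.1), 2 with the replicate block, 0 without the libraries high in muscle genes, and 0 to 1277 with 1 library left out. For the difference between days they were 722 in DESeq2, 21 and 23 in the limma fits and 6 to 1222 with 1 library left out. Within LLC they were 139 without a filter, 813 in DESeq2, 27 and 24 in the limma fits, 42 with the replicate block and 15 to 1036 with 1 library left out. Within PBS they were 1109 in DESeq2 and 41 to 1692 with 1 library left out. The causes were not tested.

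Changes of sign concerned small differences. At day 7 Pparg had -4.5e-06 and Ebf1 -0.0036 with the replicate block. Without the libraries high in muscle genes Klf15 had -0.047, Rxra -0.043 and Ebf1 -0.024. In the limma fits on log2(TPM + 1) and log2(TPM + 0.1), Rxra had -0.010 and -0.011 and Ebf1 -0.012 and -0.012. With 1 library left out Pparg ranged from -0.13 to 0.16, Klf15 from -0.014 to 0.16, Rxra from -0.044 to 0.059 and Ebf1 from -0.065 to 0.076. At day 21 the limma fits gave Pparg 0.081 and 0.082, Ebf1 0.093 and 0.094, Zfp423 0.049 and 0.048 and Stat5b 0.11 and 0.11. Without the libraries high in muscle genes Ebf1 had 0.064 and Stat5b 0.044, and Stat5b had 0.017 with the replicate block. With 1 library left out Pparg ranged from -0.30 to 0.18, Ebf1 from -0.14 to 0.095, Zfp423 from -0.11 to 0.099 and Stat5b from -0.058 to 0.039. For the difference between days, the limma fits gave Pparg 0.040 and 0.040 and Ebf1 0.10 and 0.11, the block gave Zfp423 -0.051, and leaving out 1 library moved Pparg from -0.30 to 0.18 and Ebf1 from -0.19 to 0.037. Within LLC, Stat5b had -0.0039 with DESeq2 size factors, -0.0022 without a filter, -0.0030 in DESeq2, -0.070 and -0.075 in the limma fits and -0.0086 with the block, and Nr1h3 had -0.029 and -0.030 in the limma fits. With 1 library left out there, Cebpa ranged from -0.17 to 0.085, Rxra from -0.073 to 0.071, Ebf1 from -0.21 to 0.018, Nr1h3 from -0.065 to 0.10, Zfp423 from -0.18 to 0.036 and Stat5b from -0.055 to 0.063. Within PBS the limma fits gave Rxra -0.044 and -0.045 and Stat5a -0.026 and -0.028, against a shift of the median gene by -0.20, and leaving out 1 library moved Pparg from -0.38 to 0.098 and Ebf1 from -0.079 to 0.024.

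The replicate number was fitted as a block without LLC library 5 for LLC against PBS and for the difference between days. Within each treatment the block joined same-numbered libraries of both days and left none out. The block changed no call among the 9 factors. At day 21 same-numbered LLC and PBS libraries had correlations between -0.27 and 0.30, and pairing was not shown on either day. With 4 and 5 libraries a group and an SE of 0.32 for Pparg, differences of the size seen in Cebpa were not detectable there.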

Other observations

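Coregulators of these factors were described from a list of 15 genes. At day 21, 8 had a lower and 7 a higher estimate in LLC fat (median log2 difference -0.14), and none passed the adjusted threshold in edgeR. Of the 15, 3 had an unadjusted p under 0.05 with a lower estimate, against 11.5% of all genes. Ppargc1a, the PGC-1α coactivator of mitochondrial genes, averaged 7.84 ± 3.75 CPM in LLC fat and 15.05 ± 3.86 CPM in PBS fat (log2 difference -0.97 ± 0.35, adjusted p = 0.148). Rb1, the retinoblastoma protein, had -0.38 ± 0.13 and Nrip1, a corepressor of nuclear receptors, -0.30 ± 0.13. Crebbp, a histone acetyltransferase, had 0.29 ± 0.13. At day 7 no coregulator had an unadjusted p under 0.05.

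Of 8 endothelial markers, 7 had a higher and 1 a lower estimate in LLC fat at day 21 (median log2 difference 0.36), and none passed the adjusted threshold in edgeR. Vwf, the von Willebrand factor of endothelial cells, averaged 162 ± 44.4 CPM in LLC fat and 30.3 ± 20.6 CPM in PBS fat, and Tek, the angiopoietin receptor, 99.3 ± 14.1 CPM in LLC fat and 52.8 ± 10.9 CPM in PBS fat. Both had groups that did not overlap (adjusted p = 0.0526 for Vwf and 0.0634 for Tek). In all, 3 of the 8 had such groups, where 9.7% of all genes did.

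In the authors' deposited table the day 21 log2 ratio of LLC over PBS was -0.44 for Cebpa (p = 0.0141, false discovery rate 0.116), -0.46 for Stat5a (p = 0.0477, false discovery rate 0.229) and -0.21 for Nr1h3 (p = 0.125, false discovery rate 0.389).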
